A study of Mus musculus with 8 samples.

Results

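The cells compared here were Gr-1+/Mac-1+ bone marrow cells of Vav-Etv2 mice and of control mice, measured on 4 of the 8 arrays of the series and chosen by their sample titles. Each genotype has 2 arrays, numbered 1 and 2 in the titles. All mice were aged 6 weeks and of a mixed strain (B6/CBA and others). In Vav-Etv2 mice a transgene of Etv2 is switched on by iCre, a recombinase that the Vav promoter drives throughout the blood lineages, and the genotype of the control mice is not described beyond that word. Cells were taken by FACS with no treatment afterwards, and their total RNA was amplified from low input and hybridised to Agilent 1-colour arrays. The other 4 arrays hold c-Kit+ Sca-1+ lineage- (KSL) progenitors of the same genotypes. They served to estimate the spread and to compare the Vav-Etv2 minus control differences, called the Gr and KSL effects below. The labels do not say whether arrays came from separate animals or from pooled ones. The p-values therefore set a difference against the spread between arrays within these 4 groups, pooled over the groups, and no more.

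Etv2 is a transcription factor of the ETS family that specifies the precursors of endothelium and blood in the embryo. ETS factors bind DNA at a core of the letters GGAA, and other members such as PU.1 direct granulocyte and monocyte development. Gr-1 and Mac-1 mark granulocytes, their late precursors and some monocytes, which fill granules with proteases and antimicrobial proteins in a fixed order as they mature.

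The probe sequences behind the main measurements are given first, because each level below is the signal of 1 such 60-base probe. The first pair read Etv2, the gene carried by the transgene, and the others read the 2 called features and a neighbouring heavy chain gene. Positions are on build mm9, as in the files, and all 5 lie on the minus strand: chr7:31419633-31419692, chr7:31418776-31418835, chr7:108988771-108988830, chr12:114525600-114525659 and chr12:114544738-114544797.
Etv2 probe used for the gene: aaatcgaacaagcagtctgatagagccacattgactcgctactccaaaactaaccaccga
Etv2 other probe: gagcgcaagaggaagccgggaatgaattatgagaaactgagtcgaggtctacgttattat
Folr2 probe: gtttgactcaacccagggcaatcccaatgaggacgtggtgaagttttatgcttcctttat
IgG2c heavy chain probe: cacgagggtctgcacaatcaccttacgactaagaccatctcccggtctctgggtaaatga
IgG2b heavy chain probe: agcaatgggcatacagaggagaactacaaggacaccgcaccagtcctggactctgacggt

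Levels are log2 signals relative to the 75th percentile of the array. Etv2 stood at -4.48 in control 1, a signal not well above background. Vav-Etv2 1 and 2 gave -0.55 and -1.29. In the array labelled control 2 it stood at -0.54 and was well above background. The other Etv2 probe gave -5.81 in control 1, -0.85 in the array labelled control 2, -2.33 in Vav-Etv2 1 and -1.88 in Vav-Etv2 2. Only control 1 was thus without Etv2 signal, and the array labelled control 2 went against its label. The difference between the labelled groups was 1.59 (SE 1.19, limma adjusted p = 1.00), and 3.56 without the array labelled control 2. Every comparison below uses that array under its label, except values given as without it.

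The arrays also differed by replicate number. Xist, the RNA that coats the inactive X chromosome in females, stood at 0.27 and 0.35 in control 1 and Vav-Etv2 1 and at -7.10 and -6.82 in the arrays numbered 2. The Y-linked Eif2s3y was well above background in the arrays numbered 2 alone, at 3.30 and 3.98. Signals were lower in number 1, with a 75th percentile of 136 and 149 against 300.2 and 272 in number 2. Among 23226 features tested, 1703 (7.33%) were at least 2-fold higher and 1554 (6.69%) at least 2-fold lower in number 2 than in number 1 in both genotypes. By genotype, 77 (0.332%) were at least 2-fold higher and 95 (0.409%) at least 2-fold lower in Vav-Etv2 cells within both numbers. Sex and replicate number cannot be told apart on these arrays, and differences are given below within each number. Values given without the array labelled control 2 set the mean of Vav-Etv2 1 and 2 against control 1 alone. The step between numbers therefore enters those values.

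The label of the sorted cells matched their markers by level, though not by detection alone. All 11 monocyte and macrophage markers and all 4 stem and progenitor markers were also well above background on all 4 arrays. Their summed levels, in multiples of the 75th percentile, ran from 122 to 228 and from 6.67 to 8.40. All 11 granulocyte markers were well above background on all 4 arrays, and their summed level, in multiples of the 75th percentile, was 11578 and 5250 in the arrays labelled control and 9835 and 5236 in Vav-Etv2 cells. Ly6g, which encodes the main antigen seen by Gr-1 antibodies, stood at 7.06 and 6.16 in the controls and at 6.71 and 6.05 in Vav-Etv2 cells. Itgam, the alpha chain of Mac-1, stood at 7.14 and 5.97 and at 7.20 and 5.95. The difference was -0.23 (SE 0.95, limma adjusted p = 1.00) for Ly6g and 0.02 (SE 0.55, limma adjusted p = 1.00) for Itgam, both under the spread between numbers, and quantile normalization turned the latter to -0.012.

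**Figure D1:**
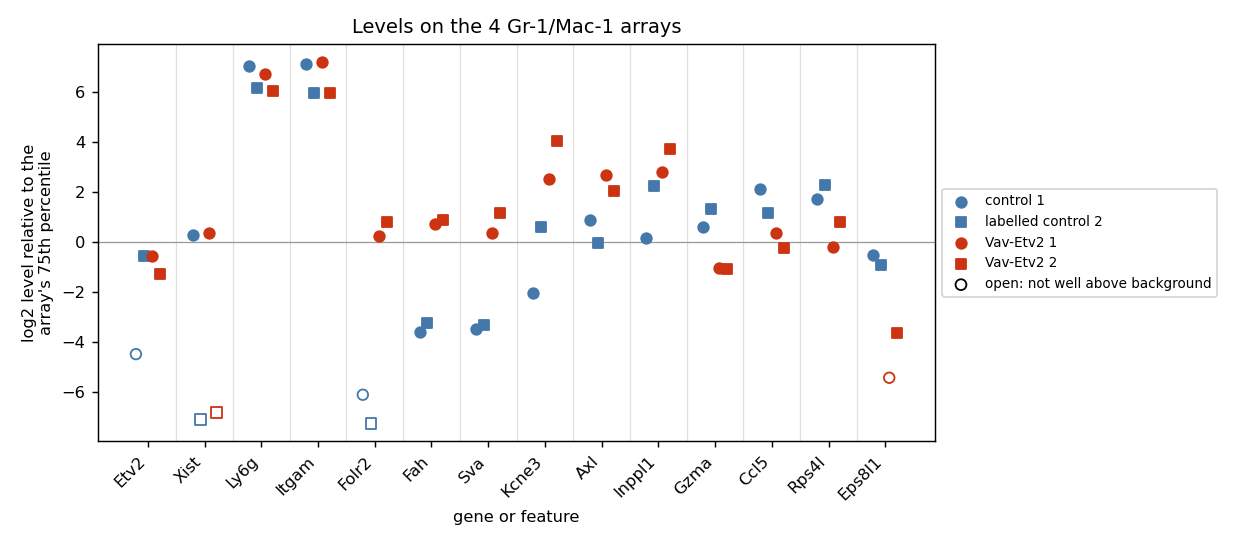
Log2 level relative to the 75th percentile of the array for 14 genes on the 4 Gr-1/Mac-1 arrays, 1 point per array, with colour for genotype, shape for replicate number and open symbols for signals not well above background. Etv2 is open in control 1 alone, Xist follows the replicate number, and Folr2 runs from -7.25 and -6.11 in the controls to 0.24 and 0.81 in Vav-Etv2 cells.

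Across all features 1 gene rose and 1 feature fell at a limma adjusted p under 0.05, each 0.00431% of those tested. The gene that rose was Folr2, the folate receptor beta, which is known as a surface protein of tissue macrophages. Its level was -6.11 in control 1 and -7.25 in the array labelled control 2, and it was well above background on neither. In Vav-Etv2 1 and 2 it was 0.24 and 0.81. The difference of 7.20 (SE 0.54, limma adjusted p = 0.0474, 2 arrays each) came to at least 37.1-fold. Both Vav-Etv2 arrays were far above both controls, the array labelled control 2 included. Within number 1 the log2 difference was 6.35 and within number 2 it was 8.06. Folr2 did not pass with any single array of the 8 left out, where the adjusted p of limma ran from 0.0633 to 0.453. In KSL cells Folr2 stood at -6.27 and -6.59 in controls and -4.12 and -2.96 in Vav-Etv2 cells, and the Gr effect exceeded the KSL effect by 4.31 (SE 0.76, limma adjusted p = 0.646).

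The other folate genes showed no difference of this size. Of 14 measured genes of folate uptake and metabolism, 9 had a positive difference, 2 had both Vav-Etv2 arrays above both controls (5.83% of all features did), and the median was 0.08 against -0.01 over all features. Folr1, the folate receptor alpha, was the other one with separate arrays, at -3.26 and -3.27 in the controls and -3.03 and -3.01 in Vav-Etv2 cells, a difference of 0.25.

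The promoter of Folr2 is shown because Etv2 is an ETS factor. RefSeq on GRCm38.p6 gives 2 start sites for the gene, and the 250 bases before one of them, chr7:101857191-101857440 on the minus strand, hold the ETS-type letters AGGAAGT at 2 places, in capitals.
Folr2 promoter: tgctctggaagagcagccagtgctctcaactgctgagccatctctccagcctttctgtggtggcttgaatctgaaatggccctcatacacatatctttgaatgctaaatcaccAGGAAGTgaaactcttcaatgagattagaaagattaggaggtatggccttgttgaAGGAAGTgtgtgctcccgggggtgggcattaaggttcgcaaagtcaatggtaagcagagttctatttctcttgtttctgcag

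The 250 bases before the other start held none. AGGAAGT, searched on both strands (its reverse complement is ACTTCCT), was found in 7.69% of 32851 RefSeq promoters of this length and in at least 1 promoter of 8.8% of genes. Of the 12 highest genes described below, 9 had a RefSeq promoter and 2 of them held the letters, Folr2 and Kcne3. The longer form CCGGAAGT, which does not contain AGGAAGT, was in none of the 9 and in 3.23% of genes. A match describes the letters alone, and binding was not measured here.

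The feature that fell was ENSMUST00000103416, described in the files as the heavy chain of IgG2c. It stood at 1.19 and 1.67 in the controls and at -4.18 and -4.86 in Vav-Etv2 cells, where it was not well above background. The difference of -5.95 (SE 0.34, limma adjusted p = 0.0168, 2 arrays each) came to at least 52.9-fold, with -5.37 within number 1 and -6.53 within number 2. With any single array of the 8 left out it did not pass either, and the adjusted p of limma ran from 0.0560 to 0.180. It also fell in KSL cells (log2 difference -5.42, limma adjusted p = 0.0115), and the difference between these effects was -0.54 (SE 0.48, limma adjusted p = 1.00).

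Other heavy chain features of the IgG constant region on chromosome 12 were then read side by side, a choice made after their values were seen. BC019489, described as IgG2a, stood at 3.73 and 1.48 in the controls and at -4.03 and -6.09 in Vav-Etv2 cells, a difference of -7.66 or at least 119-fold (SE 0.87, limma adjusted p = 0.274). Its probe starts at 114525496, next to the IgG2c probe at 114525600. IgG2a and IgG2c are alternative genes of different mouse strains and are closely alike, so these probes may not read separate transcripts. ENSMUST00000103418, IgG2b, stood at 3.24 and -0.99 in the controls and at -3.64 and -4.91 in Vav-Etv2 cells. ENSMUST00000103421, IgG1, stood at 0.41 and -2.44 in the controls and at -5.83 and -4.97 in Vav-Etv2 cells, at least 9.70-fold lower. In these 4 features both Vav-Etv2 arrays lay below both controls, and only IgG2c passed the test.

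A few further features, also picked by their values, were high in control 1 alone or low in Vav-Etv2 1 alone. ENSMUST00000103422, IgG3, stood at 2.37 in control 1 and between -7.20 and -5.63 in the others, and ENSMUST00000103420, a further IgG1 feature, at 2.36 and between -7.03 and -5.84. Jchain, which joins the subunits of secreted IgA and IgM, stood at 2.67 in control 1, -0.39 in the array labelled control 2, -6.05 in Vav-Etv2 1 and -0.08 in Vav-Etv2 2. The feature named Igh-VJ558 differed by -12.24 within number 1 and by 0.69 within number 2. The IgM heavy chain, ENSMUST00000103426, did not follow either pattern, at 3.40 and 3.32 in the controls and 3.62 and 3.81 in Vav-Etv2 cells. The constant region of the kappa light chain, ENSMUST00000103410, stood at 4.67 and 1.60 in the controls and 2.93 and 1.81 in Vav-Etv2 cells. It differed by -1.74 within number 1 and 0.21 within number 2. Over all 56 features described as immunoglobulin chains, 5 had both Vav-Etv2 arrays below both controls and 2 above, against 5.78% and 5.83% of all features. Their median difference was -0.97 within number 1 and 0.15 within number 2. On the list of plasma cell and immunoglobulin genes 4 of 8 were positive and 4 negative, with medians of -0.01 within number 1 and 0.01 within number 2, and 0 had separate groups. In bulk RNA fewer cells of a type and less RNA per cell cannot be told apart. The mice were of mixed strain, and the part of strain in these differences was not tested.

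**Figure D2:**
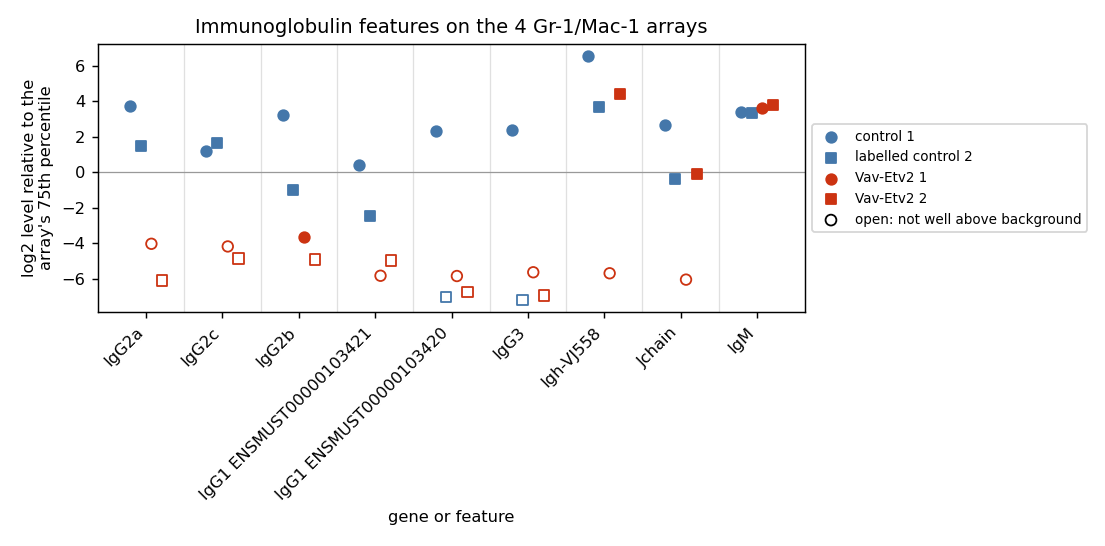
Log2 level relative to the 75th percentile of the array for 9 immunoglobulin features on the 4 Gr-1/Mac-1 arrays, 1 point per array, open where not well above background. The first 4 features lie lower in both Vav-Etv2 arrays than in both controls, IgG2c at 1.19 and 1.67 against -4.18 and -4.86, whereas Jchain and Igh-VJ558 are low in Vav-Etv2 1 alone and IgM stays between 3.32 and 3.81.

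The 12 genes with a symbol that were highest in Vav-Etv2 cells within both numbers were Folr2, Fah, Sva, Kcne3, Fam78b, Commd10, Ifi214, Axl, Grap, Ppfibp2, Inppl1 and Mrvi1, and Folr2 alone passed the test. Features named as gene models, clones or accessions were left out of this ranking. AI594671 is such a feature, with log2 differences of 3.80 and 5.12 within numbers. Fah, the last enzyme of tyrosine breakdown, stood at -3.59 and -3.22 in the controls and at 0.72 and 0.88 in Vav-Etv2 cells (log2 difference 4.21, SE 0.43, limma adjusted p = 0.190). Sva, a secreted seminal vesicle antigen, stood at -3.47 and -3.32 and at 0.35 and 1.15 (4.14, SE 0.42, limma adjusted p = 0.190). For both genes the gap between genotypes was several times that between arrays of a genotype. Kcne3, an accessory subunit of potassium channels, stood at -2.05 and 0.61 in the controls and at 2.53 and 4.03 in Vav-Etv2 cells, with log2 differences of 4.58 and 3.42 within numbers. Axl, a receptor tyrosine kinase by which macrophages take up dying cells, stood at 0.88 and -0.02 and at 2.67 and 2.05. Ifi214, of the interferon-inducible Ifi200 family, stood at -5.16 and -3.53 and at -1.73 and -1.62. In KSL cells 11 of these 12 genes also had both Vav-Etv2 arrays above both controls, against 26.2% of all features.

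Of the 12 highest genes 7 lie on chromosome 7, which holds 1723 of the 23226 features, gene models and clones included. They are Folr2, Fah, Kcne3, Axl, Ppfibp2, Inppl1 and Mrvi1. Folr2 and its neighbours stood out among them. In the 1.66 Mb from Kcne3 to Folr2, 5 of 32 features (15.6%) were at least 2-fold higher within both numbers, against 0.332% of all features. This stretch was picked after its values were seen, and the genes at both its ends are among the 5. Inppl1, the phosphoinositide phosphatase SHIP2, lies next to Folr2 at chr7:108971194-108971253 and stood at 0.16 and 2.23 in the controls and 2.80 and 3.73 in Vav-Etv2 cells. Between it and Kcne3, P2ry2, a receptor for extracellular nucleotides, stood at 0.97 and 0.45 in the controls and 2.20 and 1.89 in Vav-Etv2 cells. Plekhb1, a protein with a pleckstrin homology domain, stood at -2.08 and -3.22 and at -0.95 and -1.66. P2ry6, a further nucleotide receptor, lay just under the 2-fold line, with log2 differences of 2.11 and 0.98 within numbers. The other features did not share this: over the 32 the median difference was 0.06, and 18 were positive. Within 1 Mb on either side of Folr2, 3 of 44 features (6.82%) passed the line, and within 5 Mb the same 5 of 179 (2.79%) did. A second Kcne3 probe gave differences of 4.56 and 3.44 within numbers, and a second Plekhb1 probe was not well above background on any of the 4 arrays.

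**Figure D3:**
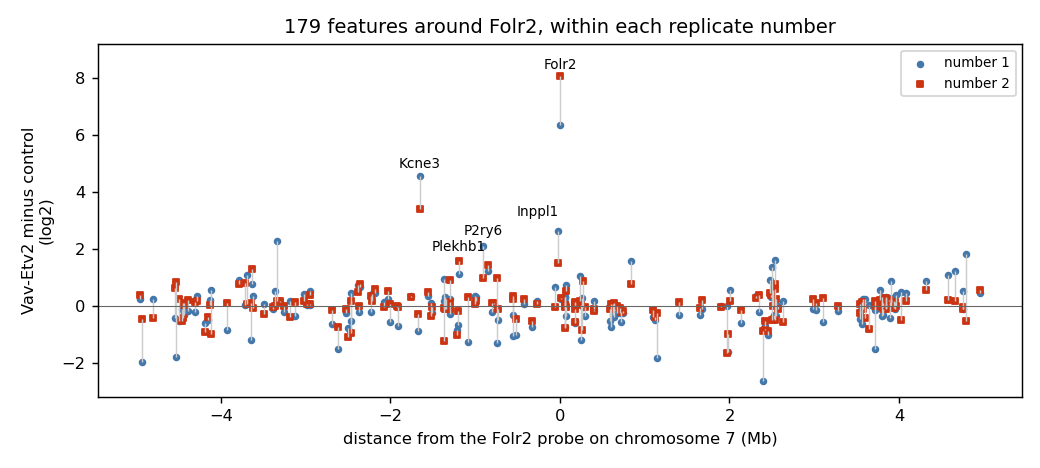
Vav-Etv2 minus control log2 difference within number 1 (circles) and number 2 (squares) for 179 features on chromosome 7, against their distance in Mb from the Folr2 probe. Folr2, Inppl1, Kcne3, P2ry6, P2ry2 and Plekhb1 lie within 1.66 Mb and stand above a median of -0.04 for the whole stretch.

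The 12 lowest genes with a symbol were Eps8l1, Thbs4, Cd3g, Klrb1a, Gzma, Arhgef25, Myh6, Dsp, Rps4l, Rps4l-ps, Zan and Ccl5, and none passed the test. This ranking also left out gene models and clones. The IgG features above, the called IgG2c included, were therefore outside it. Eps8l1, a regulator of the actin skeleton, stood at -0.51 and -0.92 in the controls and at -5.43 and -3.62 in Vav-Etv2 cells (log2 difference -3.81, SE 1.62, limma adjusted p = 1.00). Rps4l and Rps4l-ps, copies of a ribosomal protein gene whose probes may share transcripts, differed by -1.70 and -1.56. Thbs4, an extracellular matrix protein, was at least 1.88-fold lower and Arhgef25, a guanine nucleotide exchange factor, at least 2.08-fold lower. In KSL cells 8 of the 12 had both Vav-Etv2 arrays below both controls, against 25.4% of all features.

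**Figure D4:**
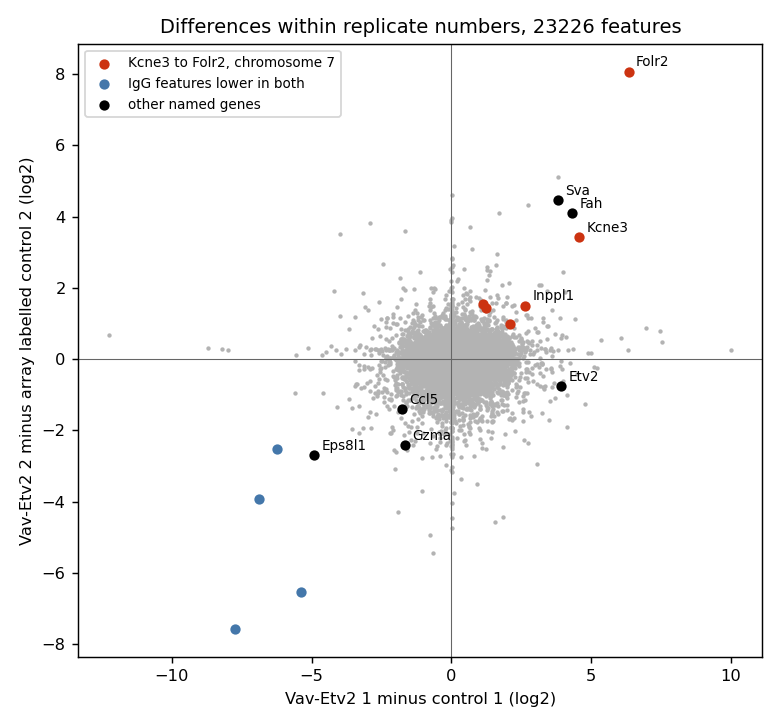
Vav-Etv2 minus control log2 difference within replicate number 1 (horizontal) against number 2 (vertical), 1 point for each of 23226 features. Folr2 stands at 6.35 and 8.06, the 4 IgG features lie at the lower left, and Etv2 is at 3.93 and -0.75.

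Of the 12 lowest genes 4, Cd3g, Klrb1a, Gzma and Ccl5, belong to the T and NK cell list. On this list 12 of 28 genes had both Vav-Etv2 arrays below both controls and 2 above, against 5.78% and 5.83% of all features. None passed the test over all genes, and 5 had an unadjusted limma p under 0.05 in the lower direction against 0.672% of all features. The list median was -0.49, with -0.39 within number 1 and -0.64 within number 2. Only 15 of the 28 genes were well above background on all 4 arrays, and 3 were so on none. Gzma, a killer cell protease, stood at 0.61 and 1.32 in the controls and -1.05 and -1.10 in Vav-Etv2 cells. Ccl5, a chemokine of killer cells, stood at 2.13 and 1.18 and at 0.37 and -0.22. Il2rb, a subunit of the interleukin receptors of NK cells, differed by -1.47 (SE 0.29), with differences of -1.64 and -1.31 within numbers. Of 6 T and NK markers 4 and 5 were well above background in the controls and 2 and 2 in Vav-Etv2 cells, and Cd8a was so on none. Their summed level was 9.34 and 5.18 in the controls and 7.30 and 5.03 in Vav-Etv2 cells, and the part of such cells in these differences was not tested. With normexp background correction the list median was -0.18.

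On the MHC class II and dendritic cell list 17 of 20 genes had a positive difference, and 10 had both Vav-Etv2 arrays above both controls and 0 below, against 5.83% and 5.78% of all features. The list median was 0.58, with 0.78 and 0.32 within numbers, and 0 genes passed by limma (1 was higher at an unadjusted p under 0.05, against 0.603% of all features). Cd74, the invariant chain that escorts class II molecules, stood at 3.41 and 3.27 in the controls and 4.64 and 3.54 in Vav-Etv2 cells. H2-Ob, part of a regulator of peptide loading, differed by 1.09 (SE 0.39), with 1.76 and 0.41 within numbers.

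The monocyte and macrophage list had 6 of 36 genes with both Vav-Etv2 arrays above both controls and 1 below (all features: 5.83% and 5.78%), and a median of 0.40, with 0.82 and 0.12 within numbers. The 6 include Folr2 and Axl. Siglec1, a sialic acid receptor of macrophages, stood at -1.66 and -2.67 in the controls and -0.21 and -1.83 in Vav-Etv2 cells, which overlap. F13a1, a coagulation factor subunit made by monocytes, differed by 2.15 within number 1 and 0.21 within number 2. All 11 monocyte and macrophage markers were well above background on all 4 arrays, with summed levels of 122 and 181 in the controls and 162 and 228 in Vav-Etv2 cells. The part of such cells in the Folr2 difference was not tested.

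On the list of B lineage genes 24 of 26 had a positive mean difference, against 48.5% of all features. Within number 1, 25 were positive, and within number 2, 14 were. The list median was 0.72, from 1.41 within number 1 and 0.03 within number 2. Only 1 gene, Cd79b, had both Vav-Etv2 arrays above both controls and 0 had both below, where all features gave 5.83% and 5.78%. Cd79b, a subunit of the B cell receptor, stood at 2.18 and 2.11 in the controls and 3.90 and 2.35 in Vav-Etv2 cells. Rag1, which cuts DNA to rearrange receptor genes, differed by 1.71 and 0.72 within numbers. The summed level of 6 B cell markers was 8.08 and 5.94 in the controls and 25.5 and 6.55 in Vav-Etv2 cells, of which Vav-Etv2 1 was the high one. Without the array labelled control 2, which sets both Vav-Etv2 arrays against control 1, the list median was 0.11.

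Genes of the granulocyte programme had small median differences. On the secondary and tertiary granule list 20 of 23 genes had a negative mean difference with a median of -0.15, but 2 were positive within number 1 and 12 within number 2 (medians -0.28 and 0.00). On the list of neutrophil receptors and chemotaxis 21 of 23 were negative with a median of -0.16, and 5 were positive within number 1 and 10 within number 2 (medians -0.32 and -0.02). The primary granule list was negative in 11 of 12 genes (median -0.29), with 6 positive within number 1 and 1 within number 2 (medians -0.19 and -0.58). On these 3 lists and those of NADPH oxidase subunits (median -0.03) and granulocyte transcription factors (median -0.05), 0 genes were called by limma, 0 had an unadjusted p under 0.05, and none had separate groups. These medians are small beside the step from number 1 to 2 in controls, which was 1.86 for primary granule genes and -1.32 for secondary granule genes. Mpo, the peroxidase of primary granules, stood at 6.83 and 9.13 in the controls and at 6.12 and 8.62 in Vav-Etv2 cells. Olfm4, a glycoprotein of secondary granules, stood at 3.26 and 0.46 and at 0.52 and -0.49. Il1b, an inflammatory cytokine, stood at 7.34 and 5.31 in the controls and at 6.39 and 4.31 in Vav-Etv2 cells, a gap between genotypes smaller than that between numbers. Cebpa, a factor that commits progenitors to the granulocyte and monocyte lineages, differed by 0.70 and 0.74, and Irf8, which favours monocytes, by 1.88 and 0.20. Without the array labelled control 2 the primary granule median turned to 0.45, and the secondary granule and receptor medians became -0.75 and -0.83. These values set both Vav-Etv2 arrays against control 1 alone. The median steps from number 1 to 2 in Vav-Etv2 cells were 1.37, -0.96 and -1.29 for these 3 lists.

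Markers of mast cells and basophils were higher in number 2. Mcpt8, a basophil protease, stood at 0.83 and 4.76 in the controls and -1.15 and 4.09 in Vav-Etv2 cells. Epx, the eosinophil peroxidase, was not well above background in number 1 and stood at 2.46 and 0.89 in number 2. On the eosinophil list as a whole 8 of 11 genes had a positive difference (median 0.34, with 0.64 and -0.77 within numbers), and its median step from number 1 to 2 was 0.08 in controls and -0.53 in Vav-Etv2 cells. The summed level of 4 mast cell and basophil markers was 5.92 and 83.3 in the controls and 1.61 and 51.7 in Vav-Etv2 cells. On the mast cell and basophil list 13 of 16 genes had a negative difference, with a median of -0.56. The median was 0.18 without the array labelled control 2 and -0.62 within number 1. On this list 0 genes had separate groups and 0 had an unadjusted limma p under 0.05. Fcer1a, the IgE receptor chain, was well above background on every array except Vav-Etv2 1, where it stood at -5.96.

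Etv2 is known for switching on vascular genes, and none of those measured in Gr-1/Mac-1 cells passed the test. On the endothelial list 6 of 30 genes had both Vav-Etv2 arrays above both controls and 1 below, where all features gave 5.83% and 5.78%. The list median was 0.26, or 0.49 within number 1 and 0.06 within number 2, and 0.08 without the array labelled control 2. Only 16 of the 30 genes were well above background on all 4 arrays, and 6 were so on none. Tie1, an endothelial receptor kinase, stood at -5.99 and -3.42 in the controls and -1.11 and -3.25 in Vav-Etv2 cells, and control 1 was not well above background. Flt1, a VEGF receptor, differed by 1.19 and 0.02 within numbers, and Kdr, the main VEGF receptor and a direct target of Etv2, by -0.26 and 0.10. Of the endothelial genes 0 had an unadjusted limma p under 0.05. The list of blood and vascular targets of Etv2 had a median of 0.22 over 21 genes, of which 4 had both Vav-Etv2 arrays above both controls and 1 below, beside the same 5.83% and 5.78%. Of these 21 genes, 15 were well above background on all 4 arrays and 1 on none. Among 23 ETS factors, Etv2 included, the median was -0.03. It was -0.49 without the array labelled control 2 and -0.14 within number 1. Ets2 differed by -0.74 and Elk3 by 0.67.

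The genes of a pair of further lists leaned one way, and no gene of either passed the test. All 11 genes of the Ifi200 family, which sense DNA and lie together on chromosome 1, had a positive mean difference, against 48.5% of all features. Their median was 0.68, with 0.52 and 0.60 within numbers. Both Vav-Etv2 arrays lay above both controls in 2 of them, Ifi214 and Aim2, and below in 0, where all features gave 5.83% and 5.78%. Aim2, the DNA sensor of the inflammasome, differed by 2.49 and 0.54 and Ifi213 by 0.43 and 1.27. Ifi202b stood at 3.98 in Vav-Etv2 1 and was not well above background on the other 3 arrays. Of 31 ribosomal protein genes 29 were positive with a median of 0.17. Both Vav-Etv2 arrays lay above both controls in 2 of them and below in 0, beside the same 5.83% and 5.78%. An unadjusted limma p under 0.05 was seen for 0 of them. Rps3, a subunit protein whose gene lies on chromosome 7, differed by 0.65 and 0.77. Without the array labelled control 2 the medians of these families were 1.59 and 0.54, against 0.52 and 0.21 within number 1. Of the 32 lists 16 had a median above 0. The median of all features was -0.01, and lists for the cell cycle (-0.01), interferon response (0.05) and respiratory chain (-0.02) lay near it.

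**Figure D5:**
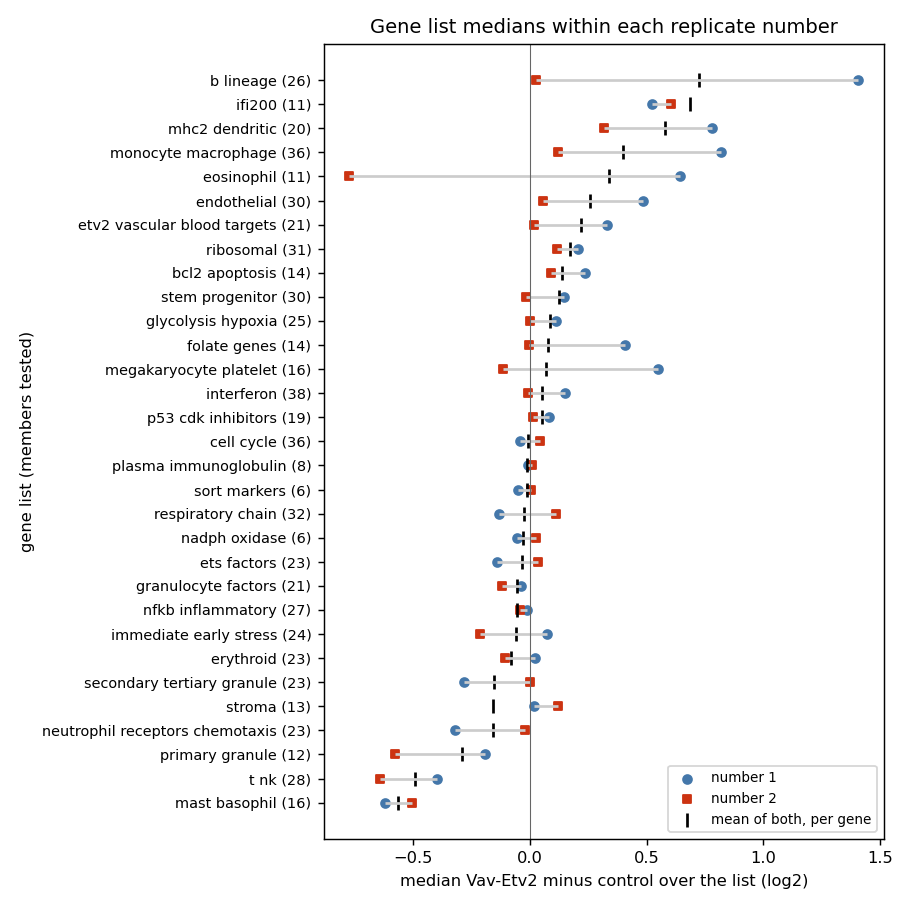
Median Vav-Etv2 minus control log2 difference over the tested members of 31 gene lists (sex-linked genes not drawn), within number 1 (circles), within number 2 (squares) and for the mean of both (bars). T and NK cell genes lie at -0.39 and -0.64 and MHC class II genes at 0.78 and 0.32, while B lineage genes lie at 1.41 and 0.03.

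Some genes moved in opposite ways within the numbers. At least 2-fold higher in number 1 and at least 2-fold lower in number 2 were 96 features (0.413%), and 41 (0.177%) were the reverse. Bmp2, a bone morphogenetic protein, differed by 3.06 within number 1 and -2.95 within number 2. Pf4, a platelet chemokine, stood at 0.48 and -2.71 in the controls and 3.11 and -3.24 in Vav-Etv2 cells. Emp1, a membrane protein, stood at -4.42 and 3.68 in the controls and -1.24 and 4.19 in Vav-Etv2 cells, and thus followed the number more than the genotype.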

How the data were processed

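The deposited files of single arrays hold spot intensity read by Agilent Feature Extraction 10.7.3.1, per the file headers, and the processed signal is background-subtracted and not scaled between arrays. Other deposited columns hold quality marks per spot (other values), and the deposited value table holds log2 values that matched the signals within 0.01 in 99.8% of probes after an offset per array. Signals of non-outlier spots were averaged per probe, put on the log2 scale and set relative to the 75th percentile of each array. Probes well above background on at least 2 of 8 arrays were kept, and the brightest stood for its gene (23226 features, 9213 of them gene models or clones named as in the files). limma 3.58.1 in R 4.3.3 fitted 1 coefficient per group to all 8 arrays, with Benjamini-Hochberg adjustment over all features and calls at 0.05. With 2 arrays against 2, an exact permutation test cannot go below p = 0.333 (two-sided). Bounds use the lowest well-above-background signal of each array. The code was tested on simulated data. The genes named are the called features, the 12 highest and 12 lowest by the smaller difference within numbers, up to 4 per list, those most split or opposed between numbers, and a few marked as picked by value. The 12 highest and 12 lowest were taken only from genes with a symbol. Their higher group had to be well above background on both arrays. The samples, lists and rules were chosen with earlier results of these data known, so no list is independent support. The number of arrays limits the precision.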

Additional observations from a re-analysis of the deposited data

Results flagged for a closer look

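The Gr and KSL effects, each a difference between labelled genotypes, were unlike for 1 feature by a test of the difference itself. The mice were of mixed strain, and the part of strain in this was not tested. ENSMUST00000103414, described as a predicted gene and lying near the IgG features on chromosome 12, fell in KSL cells (log2 difference -6.75) and was not well above background on any Gr-1/Mac-1 array (levels from -5.68 to -5.44). The Gr effect minus the KSL effect was 6.57 (SE 0.38, limma adjusted p = 0.0159), so the difference lies in a signal that Gr-1/Mac-1 cells did not show in either genotype. Myh6, the cardiac myosin heavy chain, lay below the control mean in both Vav-Etv2 Gr arrays and above it in both Vav-Etv2 KSL arrays, a Gr effect minus KSL effect of -4.26 (SE 1.60), which did not pass the test (limma adjusted p = 1.00). In Gr-1/Mac-1 cells it was well above background in the controls alone.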

How the results depend on the processing

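The 2 calls became 0 by limma under normexp background correction (78 features at an unadjusted p under 0.05), a fit of the Gr arrays alone (158) and the filter on all 8 arrays (114), and 1 with each probe by itself, the intensity trend or no filter, where ENSMUST00000103416 was the call. The features called also changed. Of 19 alternatives each, Folr2 passed in 4, ENSMUST00000103416 in 8 and Sva in 1 (limma adjusted p = 0.0491). Leaving out 1 array gave 0 to 2 calls, the 2 being Ifi202b and Zfp979 without Gr Vav-Etv2 2. The interaction call became 6 under normexp, 5 under quantile normalization, 2 under median scaling, and 0 under no filter, the filters on all 8 and on 2 of 4 Gr arrays, the floor, the intensity trend and every left-out array (0 to 0). Same-numbered Gr arrays deviated together (r = 0.658 across features; 0.0679 in KSL), with only 2 pairs, and the replicate block gave 1 call, BC019489 (limma adjusted p = 0.0224), and 0 interaction calls. Under it neither Folr2 (0.657) nor ENSMUST00000103416 (0.389) passed.

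The 172 features at least 2-fold apart within both numbers became 21 under normexp, 30 under the filter on all 8 arrays, 105 under that on 2 of 4 Gr arrays, 72 under the floor and 354 with no filter, and the 2697 with separate groups became 1461 (normexp), 1546 (all 8 arrays) and 4068 (no filter). Chosen after seeing the data, leaving out the array labelled control 2 gave 2829 and 15336, counts that set fewer arrays against each other. Of 287 recomputed list medians 37 moved by more than the SD of the values within numbers, most of them without that array. Of 69 named genes, 2 turned sign outside the left-out arrays: Itgam (-0.012, quantile) and ENSMUST00000103414 (0.32, floor). With single arrays left out 19 turned, with differences from -0.38 to 3.56 for Etv2, -0.68 to 0.22 for Ly6g, -0.61 to 0.65 for Itgam, -8.65 to 0.74 for ENSMUST00000103420, -8.65 to 0.91 for ENSMUST00000103422, -1.86 to 0.64 for Mpo, -2.02 to 0.065 for Il1b, -0.57 to 2.65 for Irf8, -0.55 to 2.90 for F13a1, -0.066 to 2.50 for Rag1, -3.95 to 1.29 for Mcpt8, -5.80 to 0.27 for Fcer1a, -3.92 to 2.85 for Epx, -2.02 to 0.53 for Ets2, -0.33 to 10.59 for Ifi202b, -0.65 to 0.48 for Kdr, -2.20 to 5.90 for Emp1, -2.13 to 4.23 for Pf4 and -1.94 to 2.05 for Bmp2. The cause was not tested.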
